A study of Mus musculus with 6 samples.

Results

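The hypoxia response and glycolysis genes are 36 genes chosen by symbol from the 24062 genes of a count table of mouse embryonic fibroblasts. They cover the subunits and hydroxylases of the hypoxia-inducible factors (HIFs), genes these factors are known to switch on, and the enzymes and transporters of glycolysis. The list was drawn up when values of these libraries were already known, including that 1 p27-overexpressing library may stand apart. The members' values are therefore given as a description. RNA-seq was done on 6 libraries from C57BL/6 embryonic fibroblasts, 3 of them labelled p27 OE and 3 labelled EV control. In p27 OE cells, p27, an inhibitor of cyclin-dependent kinases and the product of Cdkn1b, was overexpressed from a lentivirus. Their RNA was taken on day 4, and the labels describe the cells as non-senescent. The EV control cells carry the same day 4 in their labels, which do not spell out EV. The labels give no oxygen tension, promoter or embryo number, and do not say whether libraries come from separate cultures. If they do not, p-values cover only the spread between these libraries, which may be technical.

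As background, HIFs are made of an oxygen-regulated alpha subunit (HIF-1α or HIF-2α) and a constant partner, ARNT. When oxygen is present, EGLN prolyl hydroxylases mark the alpha subunit for destruction through the von Hippel-Lindau protein. When oxygen is scarce the subunit persists, pairs with ARNT and binds short elements with the core ACGTG or GCGTG in promoters and enhancers. Its targets bring in glucose, run glycolysis, turn pyruvate into lactate, export acid and call in blood vessels. Because the alpha subunit is set mostly at the level of protein, its mRNA is a poor gauge of the pathway, and Egln3, Ankrd37, Bnip3, Ndrg1 and Slc2a1 are commonly read instead. Fibroblasts in culture use glycolysis heavily even with oxygen present.

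Promoters of 6 members, picked after their values were seen, show where the HIF core lies. Slc16a3 and Aldoc are members called when libraries were paired by replicate number, and Egln3, Slc2a1, Ankrd37 and Bnip3 are commonly read targets that were highest in 1 p27 OE library. Each line gives the 250 bases before a start, 5′ to 3′ on the gene's strand, from RefSeq on GRCm38.p6. Capitals mark ACGTG or GCGTG on the printed strand and CACGT or CACGC, which are the same cores on the other strand. The windows are chr12:54203875-54204124 (minus strand) for Egln3, an oxygen-sensing hydroxylase, and chr4:119108495-119108744 (plus) for Slc2a1, the glucose transporter GLUT1. They are chr8:45999851-46000100 (minus) for Ankrd37, a HIF target with ankyrin repeats, and chr7:138909507-138909756 (minus) for Bnip3, a mitophagy receptor. They are chr11:120948817-120949066 (plus) for Slc16a3, the lactate exporter MCT4, and chr11:78322823-78323072 (plus) for Aldoc, aldolase C, which has another start downstream. The Ankrd37 and Slc16a3 windows lie inside their gene spans in the GENCODE annotation (chr8:45996902-46005707 and chr11:120948480-120960868). These spans begin upstream of the windows.
Egln3: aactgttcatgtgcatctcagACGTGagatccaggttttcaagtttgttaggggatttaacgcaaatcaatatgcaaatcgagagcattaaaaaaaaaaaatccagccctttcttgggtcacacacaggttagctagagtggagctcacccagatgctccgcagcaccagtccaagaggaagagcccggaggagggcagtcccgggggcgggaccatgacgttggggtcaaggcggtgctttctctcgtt
Slc2a1: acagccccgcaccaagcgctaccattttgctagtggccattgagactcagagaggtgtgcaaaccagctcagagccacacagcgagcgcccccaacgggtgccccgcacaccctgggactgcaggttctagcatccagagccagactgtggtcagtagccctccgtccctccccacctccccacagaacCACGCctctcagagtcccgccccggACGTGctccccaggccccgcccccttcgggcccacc
Ankrd37: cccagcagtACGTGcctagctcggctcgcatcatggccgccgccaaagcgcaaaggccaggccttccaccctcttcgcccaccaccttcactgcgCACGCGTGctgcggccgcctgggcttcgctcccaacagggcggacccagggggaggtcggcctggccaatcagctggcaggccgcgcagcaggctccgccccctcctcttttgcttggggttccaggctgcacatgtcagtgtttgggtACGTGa
Bnip3: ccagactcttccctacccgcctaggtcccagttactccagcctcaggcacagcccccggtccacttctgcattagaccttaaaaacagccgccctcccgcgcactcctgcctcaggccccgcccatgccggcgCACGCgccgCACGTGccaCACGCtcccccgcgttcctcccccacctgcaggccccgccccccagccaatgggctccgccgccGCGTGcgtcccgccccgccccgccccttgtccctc
Slc16a3: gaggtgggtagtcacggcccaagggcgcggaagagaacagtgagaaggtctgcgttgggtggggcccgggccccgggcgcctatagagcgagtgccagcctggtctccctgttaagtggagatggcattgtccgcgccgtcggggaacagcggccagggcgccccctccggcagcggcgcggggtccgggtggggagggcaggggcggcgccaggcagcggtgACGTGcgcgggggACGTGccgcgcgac
Aldoc: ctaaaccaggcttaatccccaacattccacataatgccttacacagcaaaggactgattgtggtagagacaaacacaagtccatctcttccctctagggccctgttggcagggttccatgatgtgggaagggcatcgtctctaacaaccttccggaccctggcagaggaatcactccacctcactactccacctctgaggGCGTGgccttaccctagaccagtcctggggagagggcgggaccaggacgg
Counting both strands, the core occurred 5 times in the Bnip3 window and 4 times in that of Ankrd37. Overlapping matches on the 2 strands were counted separately, as in CACGTG of Bnip3 and CACGCGTG of Ankrd37. The core occurred 2 times each in the windows of Slc2a1 and Slc16a3. A single match lay in the Egln3 window and in the printed Aldoc window. A promoter entry was matched by symbol for 32 of the 36 members; Angptl4, Epas1, Bnip3l and Ndrg1 had none. The core lay in at least 1 window of 30 of these 32 genes (93.8%), against 60.8% of the 10476 tested genes with an entry and 41.5% of all 27025 genes in the RefSeq table. The windows of the members had a median GC content of 62.8%, those of tested genes 60%, and both cores hold a CG pair. The core ACGTG overlaps CACGTG, the E-box read by MYC, USF and clock factors, and CACGTG was present in 12.5% of the members and 9.83% of the tested genes with an entry. A match is a description of the letters and not of a bound site.

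Total counts ran from 38533998 to 44518389 in p27 OE libraries and from 34920728 to 52098220 in EV control libraries. The overexpressed gene matched the labels: Cdkn1b stood at 419, 978 and 460.0 CPM (counts scaled to library size, as counts per 1e6) in p27 OE 1, 2 and 3, against 52.2, 49.9 and 51.2 CPM in EV control 1, 2 and 3. Its log2 fold change was 3.60 ± 0.35 (SE), with an adjusted p of 0.18 without the replicate number as a block and 0.0873 with it in edgeR, and of 3.88e-27 in DESeq2 without it. Leaving out p27 OE 2 gave 3.11 with an adjusted p of 0.00105 in edgeR without the block. All 10 fibroblast markers had counts in every library, while 4 of 6 erythroid markers had none in any. Endothelial markers summed to 4.80 to 5.30 CPM in p27 OE and 2.94 to 4.57 CPM in EV control, and epithelial markers to 9.41 to 9.69 CPM in p27 OE and 10.6 to 12.1 CPM in EV control, without overlap. Neuronal markers summed to 84.7, 61.5 and 67.4 CPM in p27 OE 1, 2 and 3, against 68.6, 41.4 and 45.3 CPM in EV control 1, 2 and 3. The part of these lists in the members' values was not tested. Libraries stood apart in 2 ways. Both libraries numbered 1 lay outside the range of the other 4 for 49.0% of the 14090 tested genes, and for 10 of the 35 tested members (28.6%), among them Stc2, Ndrg1 and Pdk1. p27 OE 2 had more Cdkn1b than any other library. It also had the highest summed level of macrophage markers, 93.3 CPM, against 52.6 and 66.4 CPM in the other p27 OE libraries and 53.7 to 66.9 CPM in EV control libraries. Of the 9 macrophage markers in the table all had counts in every library. Among them the pan-leukocyte gene Ptprc was at 0.593, 1.10 and 0.610 CPM in p27 OE 1, 2 and 3, against 0.333, 0.396 and 0.360 CPM in EV control 1, 2 and 3. All 3 p27 OE libraries lay above all 3 EV control libraries for 3 of the 9 markers, Ptprc included. Between same-numbered libraries, 6 markers were higher in p27 OE in all 3 pairs and 1 was lower in all 3. In bulk RNA, more cells of a type and more RNA per cell cannot be told apart.

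Across the members the clearest feature was 1 library. In p27 OE 2, 33 of the 35 tested members exceeded EV control 2, the control with the same replicate number, and the median member was 0.40 higher on the log2 scale. In p27 OE 1 and p27 OE 3, 16 of 35 exceeded their own control and the medians were −0.04 and −0.01. The same count over all tested genes was 49.2% for number 2, 48.6% for number 1 and 49.7% for number 3, with medians between −0.01 and −0.00. The members' median thus lay near that of all genes in 2 pairs and above it in the third. Differences of 2-fold or more upward were found for 6 members in number 2 (17.1%, against 2.43% of all tested genes): Egln3, Angptl4, Ankrd37, Ndrg1, Slc2a1 and Hk2. No member reached 2-fold in number 1 (1.38% of all tested genes did), and Angptl4 alone did in number 3 (1.41% of all tested genes did). Differences of at least 1.5-fold in either direction were found for 1, 12 and 2 members in numbers 1, 2 and 3 (2.86%, 34.3% and 5.71%). The shares of all tested genes were 7.37%, 10.5% and 8.36%. p27 OE 2 was the highest of the 6 libraries for 24 of 35 members (68.6%), against 17.6% of all tested genes. With upper-quartile scaling it was the highest for 21 of 35 members and 1944 of all 14090 tested genes. In number 1, 13 members and 6361 of all 14090 tested genes then exceeded their control. For 15 of 35 members the difference was upward in number 2 and downward in both others (42.9%, against 8.58% of all tested genes): Egln1, Egln3, Adm, Ankrd37, Bnip3, Bnip3l, Car9, Ndrg1, Ddit4, Kdm3a, Slc2a1, Pfkfb3, Gpi1, Aldoa and Pgk1. It was upward in all 3 numbers for 12 members (3077 of all 14090 tested genes). It was downward in all 3 for Aldoc alone (3339 of all 14090 tested genes). The high Cdkn1b and macrophage marker levels of p27 OE 2 moved with these differences, and their part in them was not tested.

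**Figure D1:**
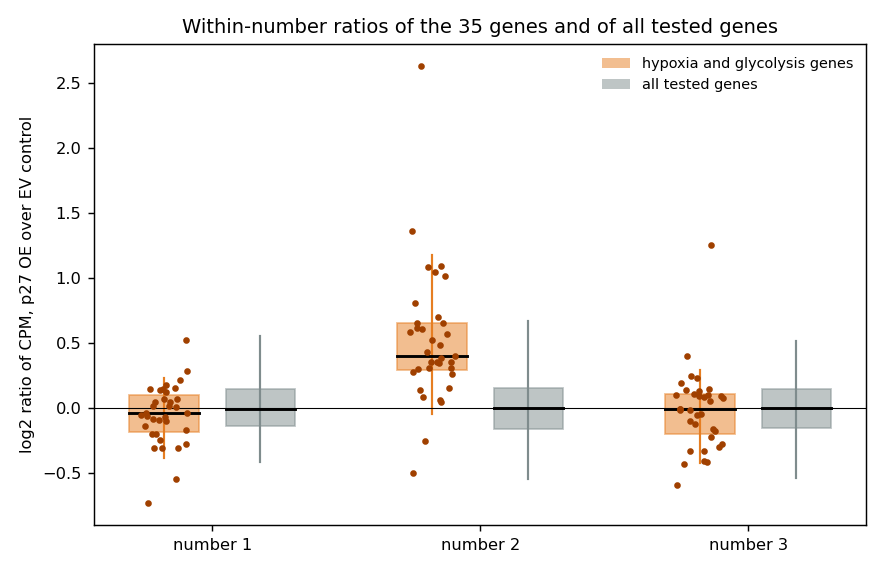
Log2 ratio of p27 OE to EV control within each replicate number, for the 35 tested members and for all 14090 tested genes. Boxes span percentiles 25 to 75, lines span percentiles 5 to 95, black bars mark medians and points are single members. The members' box lies above the other in number 2, with a median of 0.40, and overlaps it in numbers 1 and 3.

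Without pairing, edgeR's quasi-likelihood test called 0 of the 35 members at a Benjamini-Hochberg adjusted p of 0.05 or less, and 0% of all tested genes. At an unadjusted p under 0.05 it gave 4 of the 35 members and 1017 of all 14090 tested genes. DESeq2 without pairing called no member higher (0.376% of all tested genes) and 1 lower, Aldoc (0.256% of all tested genes). Same-numbered libraries deviated together, but number 1 alone stood clear of the others, and the labels do not say that the numbers pair. With the number as a block edgeR called 2 members higher in p27 OE (3.8% of all tested genes) and 1 lower (3.63% of all tested genes), together 3 of 35 (7.43% of all tested genes). Over all genes this was 535 higher and 512 lower, and with upper-quartile scaling 483 higher and 736 lower, with the same numbers of members. The higher ones were Epas1 (chr17:86753700-86833410 on GRCm38 in the GENCODE annotation) and Slc16a3 (chr11:120948480-120960868), and the lower one was Aldoc (chr11:78322968-78327781), all on the plus strand. All 3 p27 OE libraries lay above all 3 EV control libraries in CPM for 5 members: Epas1, P4ha2, Slc16a3, Hk2 and Pgam1 (6.61% of all tested genes did). They lay below for Aldoc alone (8.28% of all tested genes did). These shares are printed for scale and nothing is read from them, since the members were picked knowing this contrast. The median fitted log2 fold change of the members was 0.16, against −0.00 over all tested genes. Without p27 OE 2 it was 0.04, and the unpaired fit then called no member higher (0.00694% of all tested genes) or lower (0% of all tested genes).

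**Figure D2:**
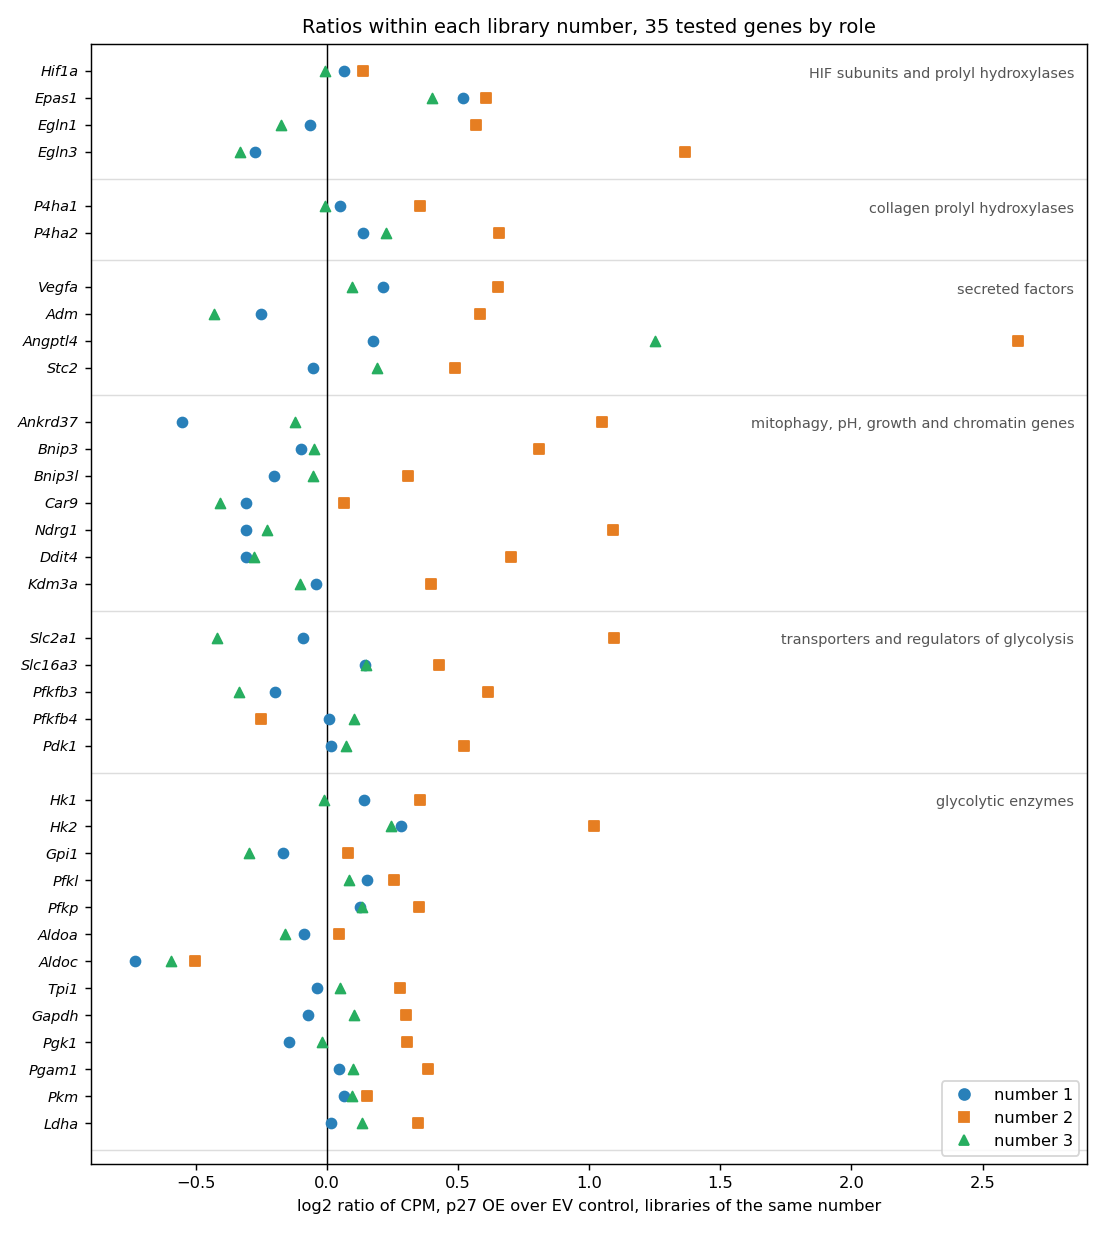
Log2 ratio of p27 OE to EV control within replicate numbers 1, 2 and 3 for each tested member, grouped by role. The points of number 2 lie right of 0 for 33 of 35 members, whereas those of numbers 1 and 3 lie on both sides of 0.

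Of the HIF subunits, Hif1a, which encodes HIF-1α, was nearly level. It stood at 302, 279 and 255 CPM in p27 OE 1, 2 and 3, against 288, 254 and 257 CPM in EV control 1, 2 and 3 (log2 fold change 0.06 ± 0.05 SE, adjusted p = 0.524 with the block in edgeR). Epas1, which encodes HIF-2α, rose in the blocked fit. It had 5.38, 6.65 and 5.86 CPM in p27 OE 1, 2 and 3, against 3.74, 4.35 and 4.42 CPM in EV control 1, 2 and 3, so the groups did not overlap. Its log2 fold change was 0.51 ± 0.14 (SE, n = 3 each; edgeR adjusted p = 0.039 with the block and 0.683 without it). The Epas1 folds within numbers 1, 2 and 3 were 1.43, 1.52 and 1.32, so this gene did not depend on p27 OE 2 for its direction. The call itself was lost in blocked fits of any 2 numbers, with an adjusted p of 0.0528 to 0.142. Per length Epas1 was a rare transcript, at a mean of 3.37 TPM over the 6 libraries (CPM divided by exon length and rescaled to a fixed total), whereas Hif1a averaged 172 TPM.

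Both oxygen-sensing hydroxylases among the members, Egln1 and Egln3, were highest in p27 OE 2. Egln3, itself a HIF target, stood at 54.3, 167 and 47.2 CPM in p27 OE 1, 2 and 3, against 65.7, 64.7 and 59.5 CPM in EV control 1, 2 and 3. p27 OE 2 was 2.58-fold above its own control, while the other p27 OE libraries were both below all 3 controls. Egln1, the main hydroxylase of HIF-1α, was also highest in p27 OE 2, at 120.1, 141 and 88.7 CPM in p27 OE 1, 2 and 3, against 126, 95.4 and 100.3 CPM in EV control 1, 2 and 3. For Egln1, p27 OE 1 lay within the range of the controls. Neither was called (adjusted p = 0.846 for Egln3 and 0.803 for Egln1 with the block in edgeR). The related gene Egln2, which is not a member, did not share this order. All 3 p27 OE libraries were below all 3 controls for Egln2, and its log2 ratio in number 2 was −0.18. Of the 14 genes of the HIF machinery outside the members, Egln2 included, 5 were highest in p27 OE 2.

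P4ha1 and P4ha2 encode catalytic subunits of collagen prolyl 4-hydroxylase, which modifies procollagen in the endoplasmic reticulum. P4ha2 stood at 344, 439.7 and 394 CPM in p27 OE 1, 2 and 3, against 312, 279 and 337 CPM in EV control 1, 2 and 3. Its groups did not overlap, with a log2 fold change of 0.34 ± 0.10 (SE) that missed the threshold (edgeR adjusted p = 0.0783 with the block). P4ha1 was at 614, 745 and 684 CPM in p27 OE 1, 2 and 3, against 594, 582 and 687 CPM in EV control 1, 2 and 3, and these groups overlapped.

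Among the secreted factors, Vegfa, the endothelial growth factor, stood at 234, 501 and 363 CPM in p27 OE 1, 2 and 3, against 202, 319 and 340.4 CPM in EV control 1, 2 and 3. Each p27 OE library was above its own control, by 1.16-, 1.57- and 1.07-fold, but p27 OE 1 was below EV control 2 and 3, so the groups overlapped. Both libraries numbered 1 were lower than the other 4. The log2 fold change was 0.32 ± 0.11 (SE; edgeR adjusted p = 0.127 with the block and 0.869 without it). Adm, the vasodilator peptide adrenomedullin, had 87.8, 195 and 100.1 CPM in p27 OE 1, 2 and 3, against 105, 130.04 and 135 CPM in EV control 1, 2 and 3. p27 OE 2 was above every control and the other p27 OE libraries were below every control. Angptl4, an inhibitor of lipoprotein lipase, varied widely between libraries. It stood at 27.4, 23.4 and 7.26 CPM in p27 OE 1, 2 and 3, against 24.2, 3.73 and 3.02 CPM in EV control 1, 2 and 3. Its folds within numbers 1, 2 and 3 were 1.13, 6.22 and 2.38, and both libraries numbered 1 were high (log2 fold change 1.23 ± 0.71 SE, edgeR adjusted p = 0.464 with the block). Angptl4 is also a target of the PPAR nuclear receptors. Stc2, the glycoprotein stanniocalcin 2, was at 26.8, 99.6 and 79.5 CPM in p27 OE 1, 2 and 3, against 27.8, 71.0 and 69.6 CPM in EV control 1, 2 and 3. The libraries numbered 1 held less Stc2 than the other 4, whichever the group.

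The 7 members with roles in mitophagy, pH, growth arrest, stress and chromatin all shared the order upward in number 2 and downward in numbers 1 and 3. Ndrg1, a gene of stress and differentiation, stood at 52.2, 221 and 94.8 CPM in p27 OE 1, 2 and 3, against 64.7, 104 and 111 CPM in EV control 1, 2 and 3. Ddit4, which encodes the mTORC1 inhibitor REDD1, had 192, 402 and 177 CPM in p27 OE 1, 2 and 3, against 237, 247 and 215 CPM in EV control 1, 2 and 3. In both genes p27 OE 2 was the highest of the 6 libraries, by 2.13- and 1.63-fold over its own control. For Ddit4 the other p27 OE libraries were below every control. Ankrd37 had 9.65, 20.7 and 6.34 CPM in p27 OE 1, 2 and 3, against 14.2, 9.98 and 6.91 CPM in EV control 1, 2 and 3, a 2.07-fold difference in number 2. Bnip3, whose promoter held the most matches of those printed, was at 219.5, 278 and 160.0 CPM in p27 OE 1, 2 and 3, against 235, 159 and 166 CPM in EV control 1, 2 and 3. The value of Bnip3 is uncertain, since 62.5% of the 50-base windows of its transcript also occur in other annotated genes. Bnip3l, its relative that is also called NIX, ranged from 104 to 127 CPM in p27 OE and from 103 to 140.4 CPM in EV control. Kdm3a, a histone H3 lysine demethylase, ranged from 47.2 to 67.4 CPM in p27 OE and from 47.6 to 69.4 CPM in EV control.

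Car9 encodes carbonic anhydrase IX, which acidifies the outside of cells and is widely used as a hypoxia marker. It behaved least like the rest of its group. Car9 stood at 38.3, 51.9 and 41.6 CPM in p27 OE 1, 2 and 3, against 47.5, 49.7 and 55.2 CPM in EV control 1, 2 and 3. Its number 2 ratio was 1.04-fold, the smallest of the 7, and its fitted log2 fold change was the only negative one among them, −0.22 ± 0.08 (SE; edgeR adjusted p = 0.143 with the block and 0.779 without it).

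**Figure D3:**
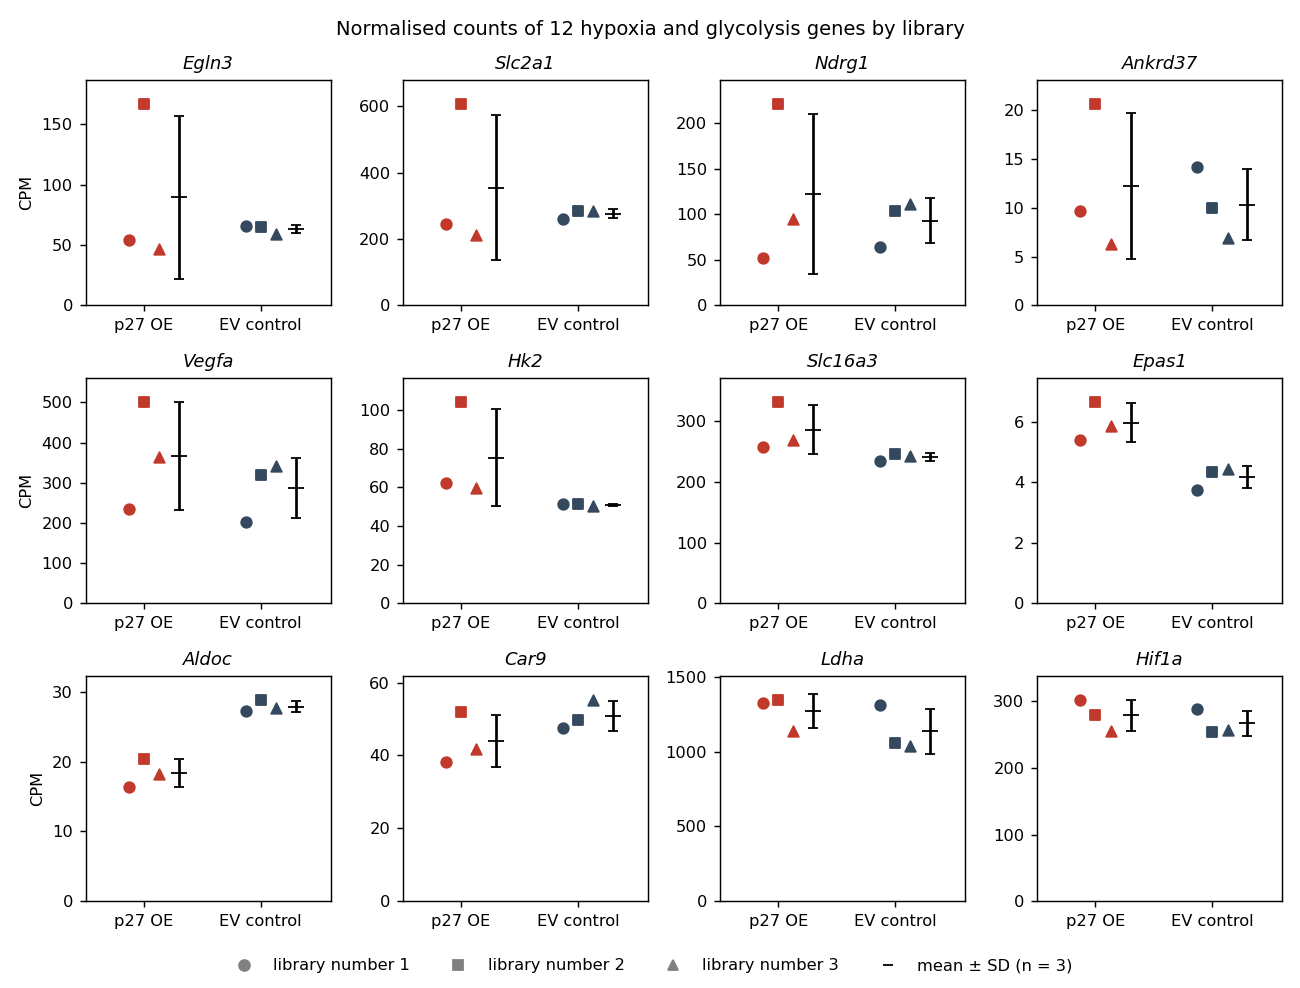
CPM in each library for 12 members, p27 OE left and EV control right in each panel, with circles, squares and triangles for library numbers 1, 2 and 3 and bars for the mean ± SD (n = 3). p27 OE 2 lies far above the other 5 libraries for Egln3, Slc2a1 and Ndrg1, whereas for Aldoc all 3 p27 OE libraries lie below all 3 EV control libraries.

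Of the transporters, Slc2a1, the glucose importer GLUT1, carried the library pattern. It stood at 246, 607 and 213 CPM in p27 OE 1, 2 and 3, against 262, 284 and 284 CPM in EV control 1, 2 and 3. p27 OE 2 was 2.14-fold above its control, while the other p27 OE libraries were below every control. The fitted log2 fold change was 0.19 ± 0.45 (SE; edgeR adjusted p = 0.857 with the block) and without number 2 it was −0.25 (adjusted p = 0.0259), a reversal. Slc16a3, the lactate exporter MCT4, rose in the blocked fit and differed in every number. It had 258, 332 and 269 CPM in p27 OE 1, 2 and 3, against 234, 247 and 242 CPM in EV control 1, 2 and 3. The groups did not overlap, with folds of 1.11, 1.34 and 1.11 and a log2 fold change of 0.24 ± 0.06 (SE; edgeR adjusted p = 0.0371 with the block and 0.685 without it). Without number 2 the Slc16a3 log2 fold change was 0.15 and was no longer called (adjusted p = 0.236), nor was it without number 3 (0.29, adjusted p = 0.0966).

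None of the regulators of glycolytic flux was called in edgeR over all 6 libraries, with or without the block. Pfkfb3 makes fructose 2,6-bisphosphate, which activates phosphofructokinase. It was at 113, 181 and 89.0 CPM in p27 OE 1, 2 and 3, against 129.9, 118 and 112 CPM in EV control 1, 2 and 3. Its folds within numbers 1, 2 and 3 were 0.871, 1.53 and 0.792. Without number 2 the blocked fit called Pfkfb3 lower (log2 fold change −0.26, edgeR adjusted p = 0.0199). Pfkfb4, its relative, was scarce in all 6 libraries, from 5.66 to 7.602 CPM in p27 OE and from 6.57 to 7.56 CPM in EV control. It was lowest in p27 OE 2, unlike most members. Pdk1 encodes a kinase that shuts pyruvate dehydrogenase and so holds pyruvate back from mitochondria. It had 98.0, 83.2 and 68.0 CPM in p27 OE 1, 2 and 3, against 96.8, 58.0 and 64.6 CPM in EV control 1, 2 and 3. Pdk1 was high in both libraries numbered 1, and the blocked log2 fold change was 0.20 ± 0.09 (SE; edgeR adjusted p = 0.25).

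Aldoc was the member lower in all 3 numbers and the most often called. Aldolase C is the brain form of the enzyme that splits fructose 1,6-bisphosphate and is a known HIF target. It stood at 16.3, 20.3 and 18.3 CPM in p27 OE 1, 2 and 3, against 27.2, 28.8 and 27.6 CPM in EV control 1, 2 and 3. Every p27 OE library was below every control, at 0.601, 0.706 and 0.663 of its own. Aldoc fell by 0.61 on the log2 scale in the blocked fit (SE 0.08, edgeR adjusted p = 0.000671), against an adjusted p of 0.642 without the block in edgeR and 0.00135 in DESeq2. It was called in 8 of the 20 settings run, more than any other member. These were every fit with the block and, of the settings without it, DESeq2 alone. The settings reuse the same libraries. No 50-base window of the Aldoc transcript occurs in another gene. Aldoa, the general form and far the more abundant, was at 1199, 1398 and 1239 CPM in p27 OE 1, 2 and 3, against 1275, 1355 and 1385 CPM in EV control 1, 2 and 3. The groups overlapped for Aldoa (log2 fold change −0.07 ± 0.06 SE, edgeR adjusted p = 0.537 with the block).

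The first enzymes of glycolysis, the hexokinases, trap glucose in the cell. Hk2, the inducible form, stood at 62.4, 104 and 59.6 CPM in p27 OE 1, 2 and 3, against 51.2, 51.5 and 50.3 CPM in EV control 1, 2 and 3. All 3 p27 OE libraries were above all 3 controls, by 1.22-, 2.03- and 1.19-fold, and the controls lay close together. The log2 fold change was 0.51 ± 0.21 (SE; edgeR adjusted p = 0.288 with the block), and without number 2 it was 0.27 with less spread (adjusted p = 0.027). Hk1, the constitutive form, ranged from 122 to 157 CPM in p27 OE and from 121 to 123 CPM in EV control. Gpi1, which turns glucose 6-phosphate into fructose 6-phosphate, was at 589.5, 681 and 584 CPM in p27 OE 1, 2 and 3, against 663, 644 and 719 CPM in EV control 1, 2 and 3. Its log2 fold change was −0.13 ± 0.07 (SE; edgeR adjusted p = 0.292 with the block). The phosphofructokinase genes Pfkl and Pfkp were higher in p27 OE within every number, by 1.06- to 1.195-fold for Pfkl and 1.09- to 1.28-fold for Pfkp, and neither was called.

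The enzymes of the later steps, Eno1 aside, were abundant. Each was higher in p27 OE 2 than in EV control 2, by 1.11-fold (Pkm) to 1.31-fold (Pgam1). Their folds in numbers 1 and 3 ran from 0.905 (Pgk1, number 1) to 1.10 (Ldha, number 3). Gapdh, glyceraldehyde 3-phosphate dehydrogenase, stood at 2519, 2870.3 and 2402 CPM in p27 OE 1, 2 and 3, against 2653, 2328 and 2235 CPM in EV control 1, 2 and 3. Pgk1, phosphoglycerate kinase, stood at 1255, 1555 and 1351 CPM in p27 OE 1, 2 and 3, against 1387, 1259.7 and 1368 CPM in EV control 1, 2 and 3. p27 OE 2 was the highest library for both, by 1.23-fold over its own control in each. The log2 fold change with the block in edgeR was 0.11 ± 0.07 (SE, adjusted p = 0.383) for Gapdh and 0.05 ± 0.08 (SE, adjusted p = 0.769) for Pgk1. Pgam1, phosphoglycerate mutase, had 809, 971 and 810.4 CPM in p27 OE 1, 2 and 3, against 784, 743 and 756 CPM in EV control 1, 2 and 3. The Pgam1 groups did not overlap, with a blocked log2 fold change of 0.18 ± 0.07 (SE; edgeR adjusted p = 0.139). Tpi1, triosephosphate isomerase, ranged from 665 to 769.8 CPM in p27 OE and from 635 to 781 CPM in EV control. Pkm, pyruvate kinase, ranged from 1920.4 to 2083 CPM in p27 OE and from 1800.1 to 1990.3 CPM in EV control. Ldha, which reduces pyruvate to lactate, stood at 1325, 1345 and 1139.8 CPM in p27 OE 1, 2 and 3, against 1311, 1059 and 1038 CPM in EV control 1, 2 and 3. Each p27 OE library was above its own control, with a log2 fold change of 0.17 ± 0.07 (SE; edgeR adjusted p = 0.152 with the block and 0.835 without it).

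Eno1, the gene of enolase 1, was counted at 0.242, 0.157 and 0.106 CPM in p27 OE 1, 2 and 3, against 0.389, 0.0283 and 0.180 CPM in EV control 1, 2 and 3. It was the only member that did not pass the filter on low counts. Of the 1978 windows of 50 bases in its transcript, 72.2% also occur in other annotated genes, nearly all of them in Eno1b, which was at 16.2 to 19.9 CPM in p27 OE and 12.8 to 18.8 CPM in EV control. No source used here states how the authors counted such reads, and the level of Eno1 is uncertain. The same overlap was 82.5% of windows for Gapdh, 68.0% for Pgk1, 41.5% for Pgam1 and 34.4% for Pkm, mostly with annotated pseudogenes. It was 0 for Aldoc, Epas1, Slc16a3, Hk2, Egln3 and Ddit4.

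Compared per length of exon, the members spanned a wide range of levels. Pgk1 at 2258 ± 133 TPM and Gapdh at 2252 ± 201 TPM were the most abundant on this measure (mean and SD over the 6 libraries) and did not differ beyond their spread. The length used was the union of all annotated exons. For Gapdh this was 4133 bases, against 1420 in its longest coding transcript, and for Pgk1 it was 2244 against 1825. In CPM every Gapdh library lay above every Pgk1 library, so this near tie rests on the length used. The union was also longer than that transcript for Aldoa (2911 against 1549 bases) and Pkm (5001 against 2432). Aldoa followed at 1672 ± 67.0 TPM, with every library under the lowest Gapdh library. Pgam1, Pkm and Ldha came next at 1524, 1458 and 1354 TPM, with overlapping ranges, and then Tpi1 at 959 TPM. P4ha1 at 588 TPM and Ddit4 at 517 TPM headed the members that are not glycolytic enzymes. Slc2a1 averaged 333 TPM, Vegfa 282 TPM and Slc16a3 184 TPM. Epas1, Pfkfb4 and Eno1 were the only members below 10 TPM.

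**Figure D4:**
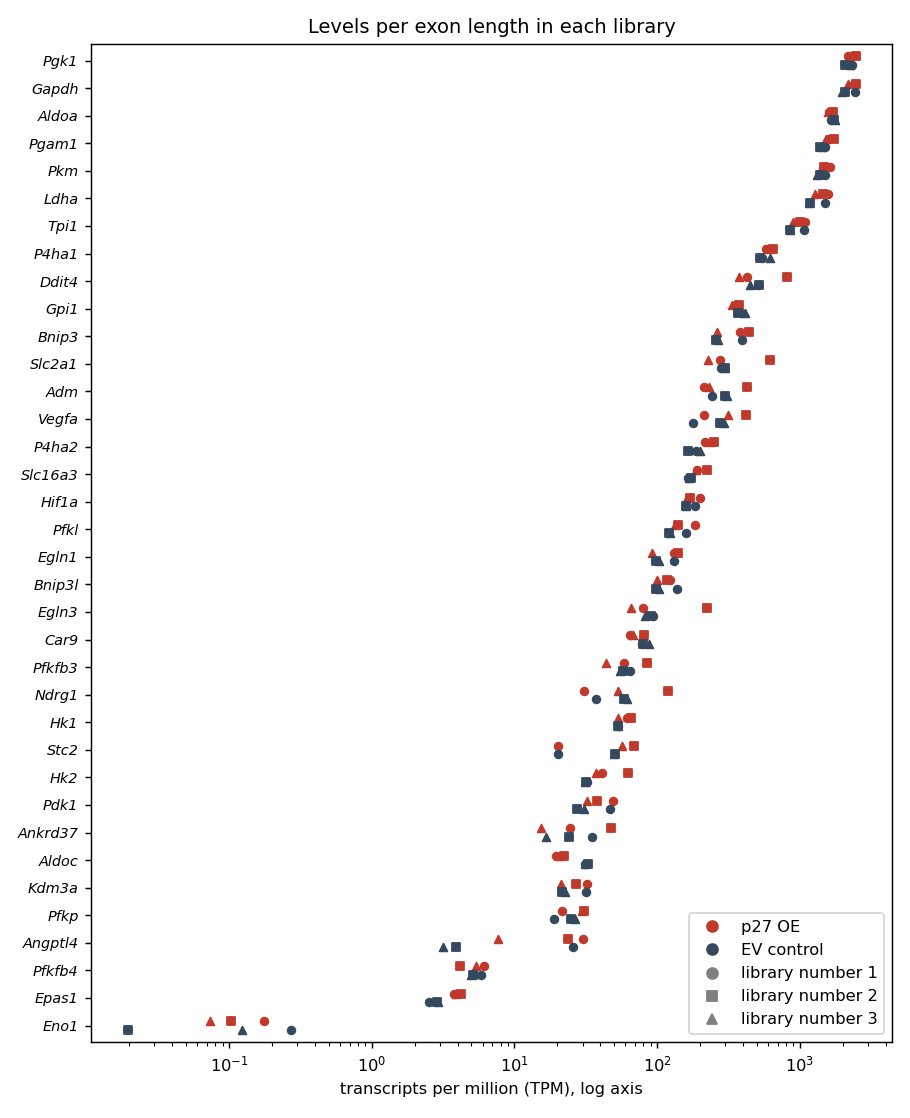
Level of each member in TPM on a log axis, with points for the 6 libraries coloured by group. Enzymes of glycolysis fill the first 7 places from Pgk1 to Tpi1, and the libraries of a member lie close together except for such genes as Angptl4, Egln3, Ndrg1 and Slc2a1.

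When number 2 was left out of the blocked fit, fewer members were called higher and more were called lower. Hk2 was the only member higher (3.51% of all tested genes), and 9 were lower (2.97% of all tested genes): Aldoc, Adm, Car9, Ddit4, Egln3, Pfkfb3, Ndrg1, Slc2a1 and Gpi1. Their log2 fold changes were −0.66 for Aldoc, −0.36 for Car9, −0.34 for Adm, −0.30 for Egln3, −0.29 for Ddit4, −0.26 for Ndrg1 and Pfkfb3, −0.25 for Slc2a1 and −0.23 for Gpi1 (edgeR adjusted p from 5.99e-07 to 0.0274). Of these 9, all but Aldoc had an upward ratio in number 2, as did 33 of all 35 tested members, so this does not set them apart. This fit rests on 2 pairs. Without number 1 the blocked fit called 5 members higher, namely Stc2, Slc16a3, Pfkp, Pgam1 and Ldha (6.36% of all tested genes), and Aldoc lower (6.04% of all tested genes). Without number 3 it called Vegfa higher (1.58% of all tested genes) and Aldoc lower (0.746% of all tested genes). Aldoc was thus the only member called in each of these fits.

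Among 96 other genes of the same pathways, listed by function, 88 were tested. Without the block none was called in edgeR, and with it 5 of 88 were higher (3.8% of all tested genes) and 1 lower (3.63% of all tested genes). The 5 higher genes were among the 33 tested other HIF targets, and 4 are given here; whether the lists differ was not tested. Loxl2, a collagen-crosslinking oxidase, was at 1129, 2017 and 1831 CPM in p27 OE 1, 2 and 3, against 952, 1362 and 1409 CPM in EV control 1, 2 and 3 (log2 fold change 0.40 ± 0.07 SE, edgeR adjusted p = 0.00421 with the block). Every p27 OE library exceeded its own control, but the groups overlapped, since p27 OE 1 was below EV control 2 and 3. Lox, a related oxidase, was at 3138, 3814 and 3559 CPM in p27 OE and 2859, 2844 and 3125 CPM in EV control in the same order (0.25 ± 0.07, adjusted p = 0.0411). The Lox call was lost without number 2 (0.17, adjusted p = 0.126) and without number 3 (0.28, adjusted p = 0.197). Edn1, the vasoconstrictor endothelin 1, was at 5.95, 14.2 and 12.5 CPM in p27 OE and 3.83, 9.27 and 9.35 CPM in EV control (0.55 ± 0.11, adjusted p = 0.0104). Tfrc, the transferrin receptor, was at 39.8, 21.8 and 16.3 CPM in p27 OE and 32.0, 13.1 and 11.99 CPM in EV control (0.49 ± 0.09, adjusted p = 0.00654). These genes have known inputs other than HIFs. The lower gene was Ldhb, which favours lactate oxidation, at 48.9, 35.8 and 36.7 CPM in p27 OE and 59.2, 47.9 and 51.4 CPM in EV control (−0.39 ± 0.07, adjusted p = 0.00392).

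By list, the median log2 ratio of the other HIF targets was 0.57 in number 2, against 0.04 in number 1 and 0.12 in number 3. Of these targets, 23 of 33 (69.7%) were highest in p27 OE 2, against 17.6% of all tested genes. Examples are Ero1l, an oxidase of the endoplasmic reticulum, and Bhlhe40, a transcriptional repressor. Ero1l was at 169.9, 759 and 410.2 CPM in p27 OE 1, 2 and 3, against 163, 315 and 355 CPM in EV control 1, 2 and 3. Bhlhe40 was at 75.1, 274 and 109 CPM in p27 OE 1, 2 and 3, against 86.2, 133 and 132 CPM in EV control 1, 2 and 3. The median in number 2 was 0.02 for the 14 genes of the HIF machinery, 0.04 for 19 other glycolysis genes, −0.02 for 14 genes of pyruvate entry into mitochondria and −0.07 for 8 genes of the pentose phosphate pathway. Lists from outside these pathways gave mixed medians in number 2. They were 0.83 for 9 macrophage markers and 1.02 for 3 endothelial markers, the latter also at 0.80 in number 3. They were −0.0007 for 10 fibroblast markers, 0.02 for 2 epithelial markers and 0.10 for 3 neuronal markers. No difference between lists was tested. Of the machinery, Arnt, the partner subunit, was at 99.3 to 100.3 CPM in p27 OE and 100.5 to 106 CPM in EV control. Nos2, the inducible nitric oxide synthase and a gene also active in macrophages, had 103 counts in p27 OE 2 and 0 in each of the other 5 libraries.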

How the data were processed

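The authors deposited raw counts per gene for 6 libraries of mouse embryonic fibroblasts. Libraries were made with an Illumina TruSeq RNA v2 kit, per the labels' protocols. The submitters' processing notes name TopHat2 2.0.14, Bowtie2 2.2.6, featureCounts 1.4.6 of Subread and mm10. The sources used here state no annotation, strand setting or treatment of reads with several matches, and genes that share sequence with copies are uncertain.

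Groups follow the labels, 3 libraries each. Genes passing edgeR's filterByExpr (minimum count 10, minimum total 15) were tested with edgeR 4.0.16 (quasi-likelihood, TMM, two-sided, Benjamini-Hochberg over 14090 genes, threshold 0.05) in R 4.3.3. Same-numbered libraries deviated together from their group means (correlations 0.77, 0.42 and 0.54 for numbers 1, 2 and 3), though p27 OE 2 with EV control 3 (0.41) and p27 OE 3 with EV control 2 (0.39) did so too, and number 1 alone stood clear of the others. Each same-numbered correlation was positive, so the fit with the number as a block is given beside the unpaired one. Alternatives were RLE and upper-quartile scaling, 2 other filters, DESeq2 1.42.0, limma-voom 3.58.1 and leaving out each library or number. For single values an exact permutation test of 3 against 3 cannot go below 0.1, so none was run.

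CPM used TMM library sizes. Ratios within a number used log2 CPM with a prior count of 2. TPM used exon-union lengths from a GENCODE annotation of GRCm38, the assembly of mm10. The fitting code was tested on simulated data. The members, lists and tests were chosen with earlier results of these data known. All 36 members are accounted for by role. The log2 fold change, SE and adjusted p of at least the blocked fit are given for Hif1a, Slc2a1, Vegfa, Pdk1 and Ldha, for members called in either fit, for those with the largest fitted changes and for the 3 most abundant per length. Eno1, under 1 CPM, was not tested. Other genes named by their pattern across libraries were chosen after their values were seen. Of the other pathway genes called, 1 is not reported here.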

Additional observations from a re-analysis of the deposited data

How the results depend on the processing

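Without the block, edgeR called no gene higher or lower in p27 OE; leaving the filter out called 1 gene higher, and DESeq2 called 53 genes higher and 36 lower, with 1 member, Aldoc, lower and Cdkn1b at 3.61 (adjusted p = 3.88e-27). With the replicate block, 535 genes were higher and 512 lower, with 2 members higher and 1 lower and 5 other pathway genes higher and 1 lower. With RLE scaling these paired fits gave 567 and 475 genes, 2 and 1 members and 6 and 1 pathway genes. With upper-quartile scaling they gave 483 and 736 genes, 2 and 1 members and 5 and 2 pathway genes. In DESeq2 with the block they gave 479 and 351 genes, 1 and 1 members, 8 and 1 pathway genes, and Cdkn1b at 3.49 (adjusted p = 5.99e-16).

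Leaving out 1 library without the block called 0 to 1 genes higher, 1 only without p27 OE 2, where Cdkn1b was at 3.11 (adjusted p = 0.00105), its lowest value, against 3.81 without p27 OE 1, its highest. The members' median log2 fold change ranged from 0.04 without p27 OE 2 to 0.23 without p27 OE 3. Leaving out 1 number from the paired fit called 224 to 893 genes higher and 106 to 848 lower (503 and 425 without number 2), 1 to 5 members higher and 1 to 9 lower, and 5 to 10 pathway genes higher and 1 to 4 lower. Cdkn1b was then at 3.09 to 3.72 (adjusted p from 1.46e-69 to 0.439). The log2 fold change of Slc2a1 ranged from −0.27 without p27 OE 2, a reversal, to 0.62 without p27 OE 3, and reversed to −0.25 in the paired fit without number 2. That of Pgk1 ranged from −0.034 without p27 OE 2, a reversal, to 0.12 without p27 OE 1, and reversed to −0.077 in the paired fit without number 2. That of Tfrc ranged from −0.00383 without p27 OE 1, a reversal, to 1.05 without EV control 1. The cause was not tested. With 3 libraries a group, 1 library such as p27 OE 2 can set a member's mean.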
